A study of Mus musculus with 9 samples.

Results

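Hprt, Gusb, Ppia and Hsp90ab1 are 4 genes that are often used as references for relative expression measurements, and each has its own custom probe on the mouse lncRNA and mRNA microarray used here. They were chosen as the custom probes whose RefSeq identifiers are those of these genes. They make up 4 of the 15 probes that could be named and 4 of the 60915 probes on the array, and each is printed 20 times per array. The question was whether their levels stayed steady enough across fetal liver, adult liver and liver cancer to serve as references.

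The study profiled liver RNA from mice in 3 groups of 3 samples, 1 array per sample, with 1-colour Agilent arrays. Fetal livers came from embryos of 17.5 days, with the sex not stated in the labels. Adult livers came from male mice of 2 months. Liver cancers came from male mice of 1 year in which tumours had been induced with the carcinogen diethylnitrosamine (DEN). No strain or genotype is given in the labels, and no untreated liver of 1 year is among the samples, so that age, carcinogen exposure and tumour differ together between the cancer and adult groups. The samples are described as independent, without saying that each came from a separate animal, so a p-value here reflects only how far these samples differ from each other, which may be technical.

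A reference gene is used to set the scale of a sample, on the premise that its RNA level does not change between the conditions compared. Hprt encodes hypoxanthine-guanine phosphoribosyltransferase, an enzyme of purine salvage that rebuilds nucleotides from free bases. Gusb encodes beta-glucuronidase, a lysosomal hydrolase that removes glucuronic acid from glycosaminoglycans. Ppia encodes cyclophilin A, an abundant cytosolic peptidyl-prolyl isomerase and the target of cyclosporin. Hsp90ab1 encodes HSP90 beta, the constitutively made cytosolic chaperone that holds kinases and steroid receptors in an active fold. Ppia and Hsp90ab1 have many near-identical processed copies in the genome, and the probe signals here do not separate such copies from the parent gene.

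The sequences just upstream of the start sites are shown because reference genes are usually thought of as having housekeeping promoters, rich in CG dinucleotides. RefSeq (GRCm38.p6) gave them for 3 of the 4 genes, each as the 150 bases before the start of transcription on the gene's own strand. Capitals mark a GC box (GGGCGG on either strand) or a TATA box (TATAAA on either strand). The Hprt window lies at chrX:52987928-52988077 on the plus strand, the Gusb window at chr5:130003050-130003199 on the minus strand and the Ppia window at chr11:6415717-6415866 on the plus strand.
Hprt: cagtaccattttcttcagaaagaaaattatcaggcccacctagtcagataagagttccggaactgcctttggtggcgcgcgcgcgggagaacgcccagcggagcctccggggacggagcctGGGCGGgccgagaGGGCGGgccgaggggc
Gusb: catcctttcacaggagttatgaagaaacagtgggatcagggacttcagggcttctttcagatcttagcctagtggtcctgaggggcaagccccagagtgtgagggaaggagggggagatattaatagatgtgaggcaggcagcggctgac
Ppia: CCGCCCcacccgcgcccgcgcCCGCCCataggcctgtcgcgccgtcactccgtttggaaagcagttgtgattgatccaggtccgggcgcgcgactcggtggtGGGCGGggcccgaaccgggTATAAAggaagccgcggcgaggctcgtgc
The Hprt window held 2 GC boxes, 14 CG dinucleotides and 64% G or C. The Ppia window held 3 GC boxes, 1 TATA box, 22 CG dinucleotides and 71.3% G or C. The Gusb window held neither box, 1 CG dinucleotide and 52.7% G or C. Another motif, CCAAT on either strand, was in none of the 3 windows. Over the same 150 bases of 32843 RefSeq promoters, 28.6% held a GC box, 7.58% a TATA box and 24.5% a CCAAT box, and the median window had 54% G or C and 4 CG dinucleotides. These matches describe letters in a window and were not related to the array values.

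The level of a gene is given as log2 of its processed signal, averaged over the spots of its probe on an array, minus the 75th percentile of all probes of that array. A difference of 1 is thus a 2-fold difference in signal relative to the bulk of the array. Each probe kept 15 to 20 usable spots per array, 677 of 720 in all, with 0 saturated spots. The SD over the spots of a probe on an array was 0.05 to 0.12 (median 0.08), so the error within an array was small beside most of the differences between groups described here.

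The arrays were read in 2 scans, and the scans do not hold the groups evenly. The first scan held the 3 fetal livers, the 3 adult livers and liver cancer 1, and the second held liver cancers 2 and 3. Liver cancers 1 and 2 carry the same array position (row 2, column 3). A difference of slide or of its handling would therefore go together with the scan, and these cannot be told apart. Probes well above background were 40.5 to 54.8% on the arrays of the first scan and 67.8 to 69.3% on those of the second. The comparisons of levels, ratios and scalings with liver cancer are therefore given over all 9 arrays, and those over the 7 arrays of the first scan, where liver cancer is 1 sample, follow them. In the fit over 7 arrays the single cancer sample is assumed to vary like the samples of the other groups. The labelled tissues could not be checked against cell type markers, because the 15 named probes include none that define hepatocytes, hepatoblasts or immune cells.

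**Figure D1:**
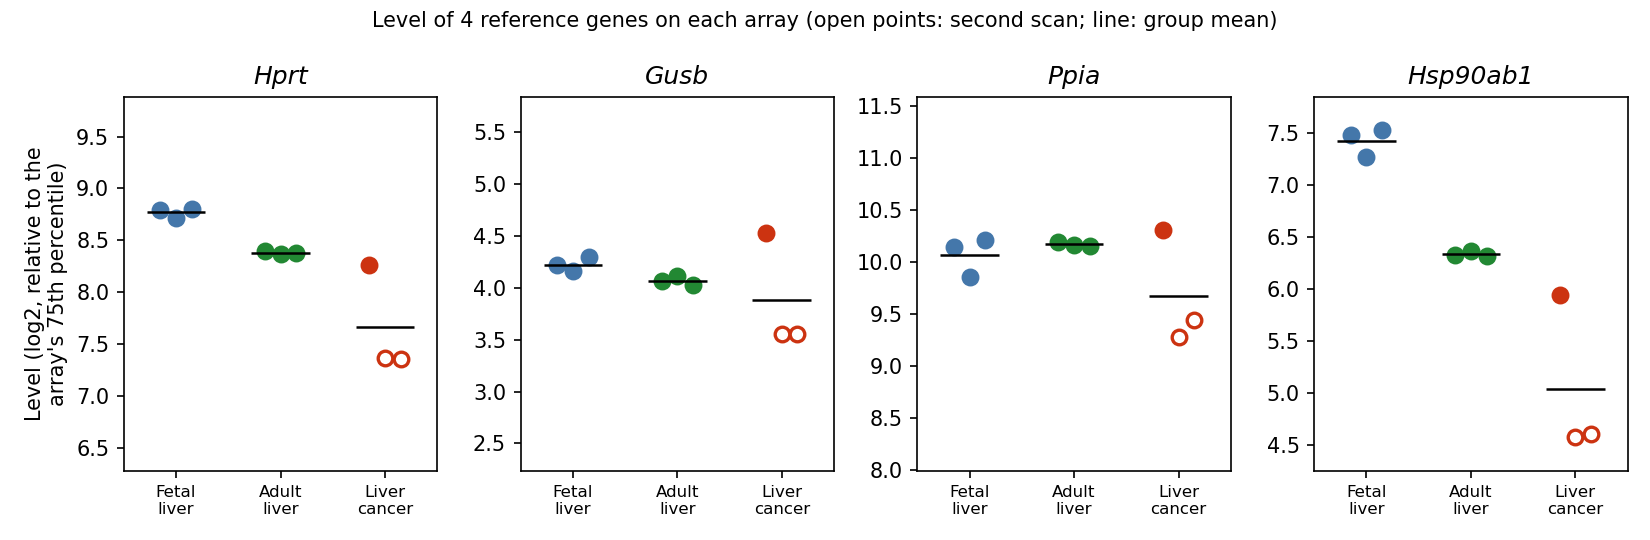
Level of each reference gene on each of the 9 arrays, in log2 units relative to the array's 75th percentile, for 3 fetal livers, 3 adult livers and 3 liver cancers. All panels span the same number of log2 units, filled points are the first scan, open points the second, and lines are group means. In every panel both open points lie below every other array, and Hsp90ab1 also separates the fetal from the adult livers by 1.09.

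Gusb had the narrowest range of the 15 named genes. Its level was 4.21, 4.16 and 4.29 in fetal livers 1 to 3, 4.06, 4.11 and 4.03 in the adult livers, and 4.52, 3.56 and 3.55 in the liver cancers. The fetal values lay just above the adult ones without overlap, and the cancers held both the highest and the lowest values of the series. The group means were 4.22 ± 0.07 (SD, n = 3) for the fetal livers, 4.07 ± 0.04 for the adult livers and 3.88 ± 0.56 for the cancers, so the order was fetal, adult, cancer, and no neighbours differed beyond their spread in the test. Fetal liver exceeded adult liver by 0.15 (95% interval -0.46 to 0.77). Liver cancer stood at -0.19 from adult liver (-0.80 to 0.42) and at -0.34 from fetal liver (-0.95 to 0.27). None of these was called by limma, with adjusted p of 0.681, 0.623 and 0.319. Before scaling, the Gusb probe gave 2571 to 3350 signal units in fetal liver, 1532 to 1816 in adult liver, 2022 in liver cancer 1, and 4815 and 4174 in liver cancers 2 and 3. The raw signal was thus highest on the arrays where the scaled level was lowest.

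Ppia was similarly placed. Its level was 10.15, 9.86 and 10.21 in the fetal livers, 10.19, 10.16 and 10.16 in the adult livers, and 10.31, 9.28 and 9.45 in the liver cancers. The adult values fell inside the fetal range, liver cancer 1 was the highest of all arrays and liver cancers 2 and 3 the lowest. Group means were 10.07 ± 0.19 (SD, n = 3) for the fetal livers, 10.17 ± 0.02 for the adult livers and 9.68 ± 0.55 for the cancers, giving the order adult, fetal, cancer with no neighbours apart beyond their spread. Fetal minus adult liver was -0.10 (95% interval -0.72 to 0.53; limma adjusted p = 0.805). Liver cancer minus adult liver was -0.49 (-1.12 to 0.13; limma adjusted p = 0.204), and liver cancer minus fetal liver was -0.39 (-1.02 to 0.23; limma adjusted p = 0.263). Both cancer intervals reached just past a 2-fold decrease, so these arrays leave room for a change of that size.

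Hprt was lower in the cancers than in the fetal livers, with the adult livers between them. Its level was 8.79, 8.72 and 8.81 in the fetal livers, 8.40, 8.37 and 8.38 in the adult livers, and 8.26, 7.37 and 7.36 in the liver cancers. The 3 groups did not overlap, with fetal liver highest and cancer lowest, but liver cancer 1 lay only a little under the adult livers while liver cancers 2 and 3 lay far under them. Group means were 8.77 ± 0.05 (SD, n = 3), 8.38 ± 0.01 and 7.67 ± 0.51 in the same order. Fetal liver exceeded adult liver by 0.39 (95% interval -0.19 to 0.97), which limma did not call (adjusted p = 0.244). Liver cancer minus adult liver was -0.72 (-1.29 to -0.14), which also missed the threshold (limma adjusted p = 0.0614). The cancers were 2.15-fold below the fetal livers, a log2 difference of -1.11 ± 0.26 (SE; -1.68 to -0.53; limma adjusted p = 0.00553).

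Hsp90ab1 changed most of the 4. Its level was 7.49, 7.27 and 7.53 in the fetal livers, 6.33, 6.37 and 6.32 in the adult livers, and 5.94, 4.58 and 4.60 in the liver cancers. The 3 groups did not overlap, and the order was fetal, adult, cancer. Group means were 7.43 ± 0.14 (SD, n = 3), 6.34 ± 0.02 and 5.04 ± 0.78. Fetal liver exceeded adult liver 2.13-fold, a log2 difference of 1.09 ± 0.34 (SE; 95% interval 0.31 to 1.87; limma adjusted p = 0.027). Liver cancer was 2.46-fold below adult liver, at -1.30 ± 0.34 (-2.08 to -0.52; limma adjusted p = 0.0201). Against fetal liver it was 5.24-fold lower, at -2.39 ± 0.34 (-3.17 to -1.61; limma adjusted p = 0.00035). In bulk tissue, fewer cells of a type that holds a transcript and less of the transcript per cell cannot be told apart.

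A probe was called where the limma adjusted p, over all 34103 tested probes, was below 0.05 and the difference was at least 2-fold. Between fetal and adult liver 1 of the 4 genes was called (Hsp90ab1, higher in fetal liver), where 39.6% of all tested probes were called. The cancer and adult comparison called 1 of 4 (Hsp90ab1, lower in cancer), against 24.1% of tested probes. The cancer and fetal comparison called 2 of 4 (Hprt and Hsp90ab1, both lower in cancer), against 42.4%. Of the 11 other named genes, used here as a list, 6 rose and 3 fell from adult to fetal liver, 1 rose and 2 fell from adult liver to cancer, and 3 rose and 6 fell from fetal liver to cancer. Leaving out any 1 fetal or adult array ended the call of Hsp90ab1 between these groups (limma adjusted p of 0.0511 to 0.0781) at differences of 1.04 to 1.17. These fits share 1 estimate of the spread with the cancers. With the fetal and adult arrays fitted alone the difference was 1.09 ± 0.12 (SE) and called (limma adjusted p = 0.000404). Without liver cancer 1 it was also called, at the same difference (limma adjusted p = 0.000136).

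A p that misses the threshold does not show that a level is steady, so the intervals were also read against a margin. The 95% interval of the difference lay within 2-fold for Hprt, Gusb and Ppia between fetal and adult liver, as it did for 20.3% of tested probes. For the cancers against the adult livers it did so for Gusb alone among the 4, against 27.5% of tested probes. Against the fetal livers it again did so for Gusb alone, where the share of tested probes was 18.7%. Gusb was the single gene of the 4 with all 3 intervals inside the margin, a property shared by 8.05% of tested probes. This holds for the main processing and did not hold under every alternative. Between liver cancer and fetal liver the Gusb interval reached past 2-fold with the array median (-0.57 ± 0.37, SE). It did the same with quantile normalization (-0.44 ± 0.29) and without fetal liver 2 (-0.37 ± 0.32). It also did so with scaling to the other 3 genes (0.95 ± 0.16). That value carries the differences of those genes themselves, Hprt (-1.11), Ppia (-0.39) and Hsp90ab1 (-2.39). The Gusb interval stayed inside with the 75th percentile of probes above background on all arrays (-0.30 ± 0.20). With the array median it also reached past 2-fold between liver cancer and adult liver (-0.47 ± 0.37). These settings are examples and not the full list. In the main processing none of the 12 intervals of the 4 genes lay within 1.5-fold. The fit behind them, however, shares 1 estimate of the spread with the cancers. The first scan holds the same fetal and adult livers. Fitted there, fetal minus adult liver was within 1.5-fold for Gusb (95% interval -0.11 to 0.42) and Ppia (-0.43 to 0.23). It was not for Hprt (0.13 to 0.65) or Hsp90ab1 (0.79 to 1.39).

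Over the 7 arrays of the first scan the picture for liver cancer was different. Gusb and Ppia then stood above the other groups in liver cancer, with cancer minus adult liver at 0.46 for Gusb and 0.14 for Ppia, and cancer minus fetal liver at 0.30 and 0.24, none of them called by limma. Hprt in liver cancer 1 was -0.12 from adult liver and -0.51 from fetal liver (limma adjusted p = 0.0312), the second past the p threshold but short of 2-fold. Hsp90ab1 in liver cancer 1 was -0.40 from adult liver (limma adjusted p = 0.159) and -1.49 from fetal liver (limma adjusted p = 0.00071). Without the 2 arrays of the second scan, neither Hsp90ab1 against adult liver nor Hprt against fetal liver was thus called. Leaving out liver cancer 1 instead put all 4 genes lower in cancer. The cancers left are then the 2 arrays of the second scan, so cancer and scan cannot be told apart in that fit. Of all tested probes it called 12117 against adult liver, where the fit with liver cancer 1 called 8205. Against adult liver the differences were then -1.75 for Hsp90ab1 and -1.01 for Hprt, both called by limma, and -0.51 for Gusb (limma adjusted p = 0.00872) and -0.81 for Ppia (0.00327), both short of 2-fold. Against fetal liver Gusb was then at -0.67 (limma adjusted p = 0.00182) and Ppia at -0.71 (0.00435), also short of 2-fold. The sign of Gusb and Ppia in liver cancer therefore differed between liver cancer 1 and the other two.

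Single arrays bore on the calls of Hsp90ab1 and Hprt as well. Leaving out any 1 adult array ended the call of Hsp90ab1 against adult liver (limma adjusted p of 0.0536 to 0.0578) with the difference still at -1.29 to -1.31. Without liver cancer 2 or 3 it was -1.07 and -1.08 (limma adjusted p = 0.0695 and 0.0719). Hprt against fetal liver was then -0.96 in both cases, past the p threshold (limma adjusted p = 0.0211 and 0.0216) and under 2-fold.

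In the first scan, 1 of the 4 genes was called between fetal and adult liver (Hsp90ab1, 1.09, limma adjusted p = 0.0004), where 41% of tested probes were. For liver cancer 1 against the adult livers limma called none of the 4, against 18.3% of tested probes, and 1 of 4 had an unadjusted p under 0.05 (Gusb, 95% interval 0.08 to 0.84). Against the fetal livers 1 of 4 was called (Hsp90ab1), where 38.7% of tested probes were. The interval lay within 2-fold for 3 of 4 between fetal and adult liver (30.2% of tested probes), for 4 of 4 between cancer and adult liver (31.9%), and for 3 of 4 between cancer and fetal liver (19.5%). Hsp90ab1 was the gene outside it in both of the comparisons with 3 of 4. Hprt between fetal and adult liver passed the p threshold in this scan at the same difference of 0.39 (limma adjusted p = 0.0192), still under 2-fold.

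**Figure D2:**
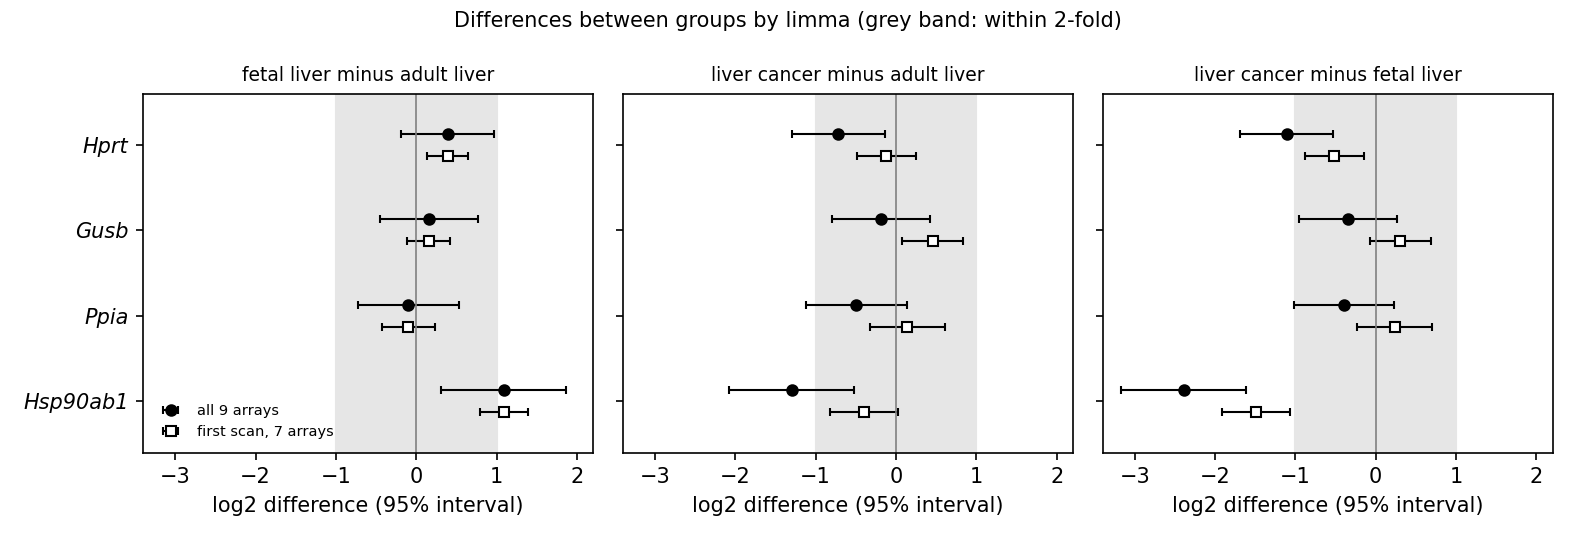
Difference between groups in log2 units with its 95% limma interval for the 4 genes, over all 9 arrays (filled circles) and over the 7 arrays of the first scan (open squares), where liver cancer is 1 sample. The grey band marks differences within 2-fold. For Gusb all 3 intervals over 9 arrays lie in the band, and for Hsp90ab1 none of them does.

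Several measured quantities moved with the cancer values, and their part in the results was not tested. From liver cancer 1 to the mean of liver cancers 2 and 3, the level of Hprt shifted by -0.89, Gusb by -0.97, Ppia by -0.95 and Hsp90ab1 by -1.35. In raw log2 signal the same probes rose by 1.23, 1.15, 1.17 and 0.77, while the 75th percentile of the arrays rose by 2.12. When all tested probes were sorted by brightness into 10 classes, the median shift went from 0.36 in the dimmest class to -0.75 in the brightest. Hprt, Ppia and Hsp90ab1 belong to the brightest class and Gusb to the next, and 40.3%, 36.1% and 11.7% of the brightest class, and 24.9% of the next, had a lower shift than they did.

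The paired control probes for Pgk1 and Gapdh, whose names end in 3 and 5, also differed by group, in liver cancer 1 as well as in liver cancers 2 and 3. The gap in log2 signal between the Pgk1 probes named 3 and 5 was 4.74 ± 0.08 (SD, n = 3) for the fetal livers, 5.07 ± 0.04 for the adult livers and 6.53 ± 0.07 for the cancers (6.49, 6.48 and 6.61 in liver cancers 1 to 3). For the Gapdh probes it was 0.76 ± 0.03, 1.20 ± 0.03 and 1.41 ± 0.17. The files do not state what the 3 and 5 stand for. No group overlapped another in either gap, and each exact permutation p between 2 groups was 0.1, the smallest that 3 against 3 arrays allow.

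The ratio of 2 genes on the same array does not depend on how that array was scaled, so ratios ask whether the references moved together. Each is the log2 ratio of 2 probe signals. Its size depends on the brightness of both probes, and only its change between groups is read here. The exact permutation test of the 3 groups used 1680 assignments of the 9 arrays, with a smallest possible p of 0.00357, and p-values were adjusted over all 105 pairs of the 15 named genes. All 6 pairs of the 4 genes differed between the groups, where 92.4% of the 105 pairs did.

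The pair Gusb and Ppia moved together most closely. Their log2 ratio was -5.93, -5.70 and -5.92 in the fetal livers, -6.13, -6.05 and -6.13 in the adult livers, and -5.78, -5.72 and -5.89 in the liver cancers. The fetal livers and the cancers overlapped, and the adult livers lay below both. The SD over 9 arrays was 0.163, the third smallest of the 105 pairs, whose median was 0.999 and whose smallest, Hsp90ab1 to Tbp, was 0.132. The group means spanned 0.30, a 1.23-fold range (exact permutation p = 0.0321, adjusted p = 0.0375). Liver cancer minus fetal liver was 0.05 (95% limma interval -0.15 to 0.25) and liver cancer minus adult liver was 0.30 (0.10 to 0.51). The call of this pair was lost over the first scan (exact permutation adjusted p = 0.0588) and without adult liver 1 or adult liver 3 (0.0820 each).

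Hprt drifted slowly against both of these. The ratio of Hprt to Gusb was 4.57, 4.56 and 4.52 in the fetal livers, 4.33, 4.26 and 4.35 in the adult livers, and 3.73, 3.82 and 3.81 in the liver cancers. The 3 groups did not overlap, and liver cancer 1 lay with liver cancers 2 and 3 rather than apart from them. The means differed by at most 1.70-fold, between fetal liver and cancer (log2 -0.76, 95% limma interval -0.90 to -0.62; exact permutation adjusted p over the 3 groups = 0.00615). The ratio of Hprt to Ppia went from -1.30 ± 0.14 (SD, n = 3) in the fetal livers to -1.79 ± 0.01 in the adult livers and -2.01 ± 0.10 in the cancers, a 1.64-fold range (exact permutation adjusted p = 0.00615).

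The ratios with Hsp90ab1 changed most. Gusb to Hsp90ab1 was -3.27, -3.11 and -3.24 in the fetal livers, -2.27, -2.26 and -2.29 in the adult livers, and -1.42, -1.02 and -1.05 in the liver cancers. All 3 groups were apart, with fetal liver lowest, and the group means spanned 4.13-fold (exact permutation adjusted p = 0.00615). Ppia to Hsp90ab1 had means of 2.64 ± 0.05 (SD, n = 3), 3.83 ± 0.03 and 4.64 ± 0.24, a 3.98-fold range, and Hprt to Hsp90ab1 had 1.34 ± 0.09, 2.04 ± 0.03 and 2.62 ± 0.27, a 2.43-fold range. Each of these had the same exact permutation adjusted p of 0.00615. The decrease of Hsp90ab1 against the other 3 genes was also present in liver cancer 1, whose ratios of Gusb, Ppia and Hprt to Hsp90ab1 (-1.42, 4.37 and 2.32) all lay above the adult range.

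**Figure D3:**
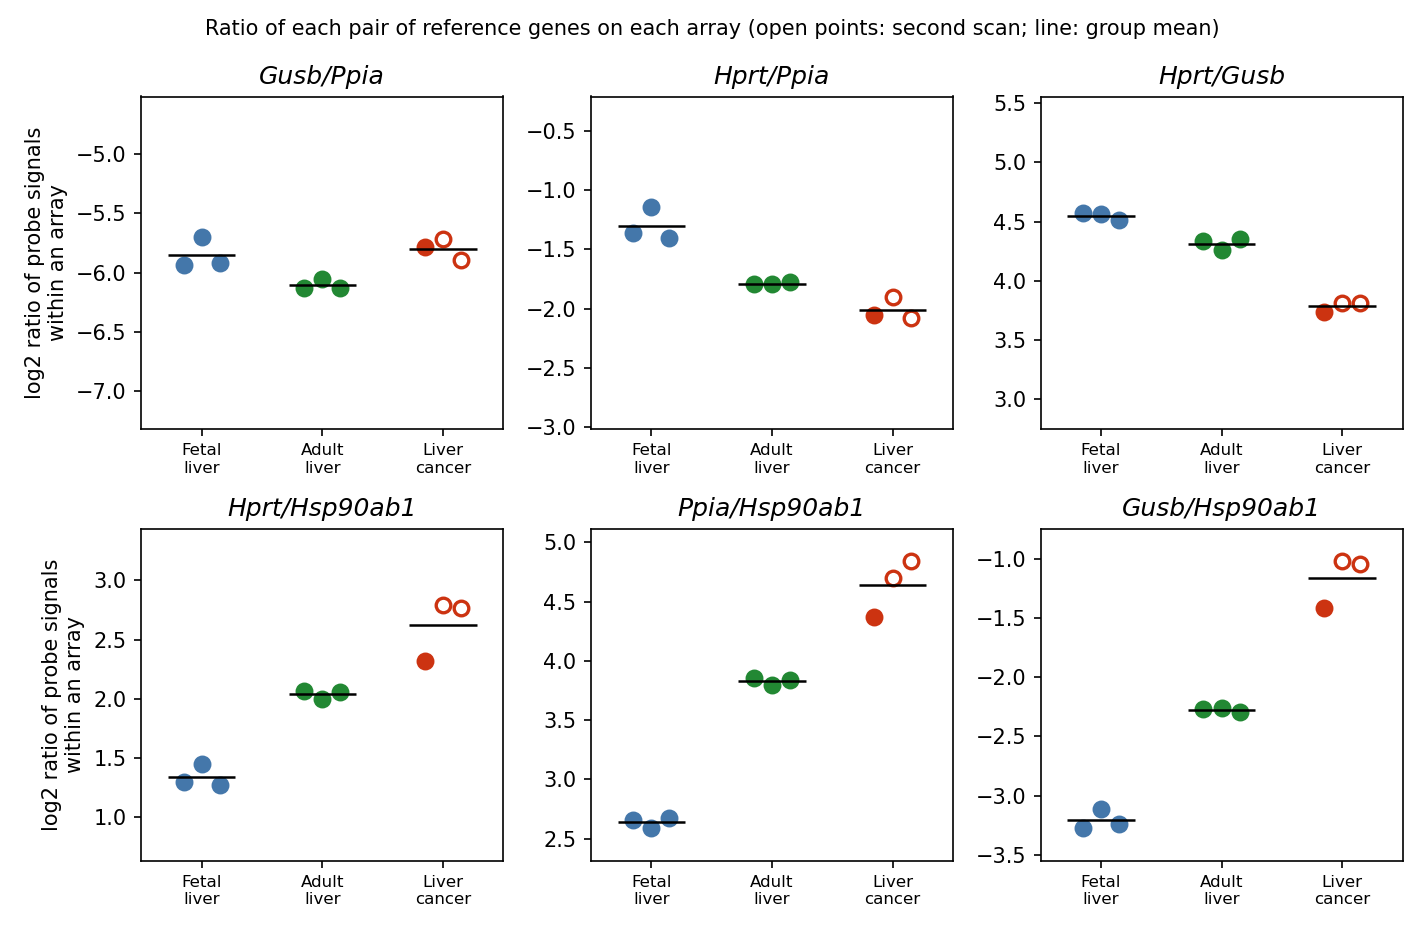
log2 ratio of probe signals for the 6 pairs of reference genes on each of 9 arrays, by group, with all panels spanning the same number of log2 units. Filled points are the first scan, open points the second, and lines are group means. Gusb to Ppia spans 0.30 between group means and Gusb to Hsp90ab1 spans 2.05.

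For the cancers against the adult livers, the 95% limma interval lay within 2-fold for 4 of the 6 ratios, all but Gusb and Ppia to Hsp90ab1. In both other comparisons it did so for the 3 ratios among Hprt, Gusb and Ppia. Of all 105 pairs, 29.5% did so between cancer and adult liver, 13.3% between fetal and adult liver and 24.8% between cancer and fetal liver. Over the first scan the counts were 5 of 6 against adult liver, all but Gusb to Hsp90ab1, and 2 of 6 against fetal liver, Hprt to Gusb and Gusb to Ppia, where 44.8% and 29.5% of the 105 pairs did so. Gusb to Ppia was inside 1.5-fold in all 3 comparisons over 9 arrays and again over the first scan, which no other pair of the 4 was. In the first scan the cancer and fetal values of this ratio differed by 0.06 (-0.20 to 0.33), and those of Gusb to Hsp90ab1 by 1.79 (1.59 to 1.99).

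By the SD of the level over 9 arrays, Gusb (0.319) was the steadiest and Ppia (0.369) the next of the 15 named genes, followed by Gapdh (0.530) and Hprt (0.550), with Hsp90ab1 at rank 9 with 1.11 and Ldhal6b last at 1.68. Among the 19944 probes well above background on all arrays, whose median SD was 0.634, 11.4% had a smaller SD than Gusb, 17.6% than Ppia, 40.3% than Hprt and 82.6% than Hsp90ab1. Over the first scan alone the SDs were 0.139 for Ppia, 0.170 for Gusb, 0.231 for Hprt and 0.656 for Hsp90ab1, and 1.93%, 3.99%, 11.2% and 63.1% of those probes had a smaller one. Ppia and Gusb thus changed places with the scan, and Hprt moved from rank 4 to rank 3 among the named genes.

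The geNorm measure M, the mean SD of a gene's log2 ratios to the other genes, ordered them differently. Over all 15 named genes M was smallest for Hprt (0.917), then Gusb (0.931) and Ppia (0.950), while Hsp90ab1 had 1.10 and rank 8. Among the 4 alone M was 0.414 for Hprt, 0.456 for Ppia, 0.466 for Gusb and 0.782 for Hsp90ab1. Over the first scan M among the 4 was 0.346 for Hprt, 0.381 for Gusb, 0.407 for Ppia and 0.615 for Hsp90ab1, so Gusb and Ppia changed places, and over the 15 genes Hprt and Gusb kept ranks 1 and 2 while Ppia had rank 5 and Hsp90ab1 rank 6. Hprt thus led by M and had rank 4 by SD, where M is made of ratios within an array and the SD of scaled levels. M depends on the genes in the set. Over 9 arrays the SD of the ratio to Hsp90ab1 was 0.574 for Hprt, 0.895 for Gusb and 0.878 for Ppia. Among Hprt, Gusb and Ppia, the ratio Gusb to Ppia had the smallest SD (0.163). Those of Hprt to Gusb and to Ppia had 0.341 and 0.327, so Hprt was the least steady of these 3 by their ratios. Averaging Hprt, Gusb and Ppia gave an SD of 0.391 over 9 arrays and 0.0994 over the first scan, the first above that of Gusb or Ppia by itself and the second below that of any of the 3 genes by itself. The mean of Gusb and Ppia gave 0.336 and 0.131. Adding Hsp90ab1 to the mean of 3 gave 0.555 and 0.212.

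**Figure D4:**
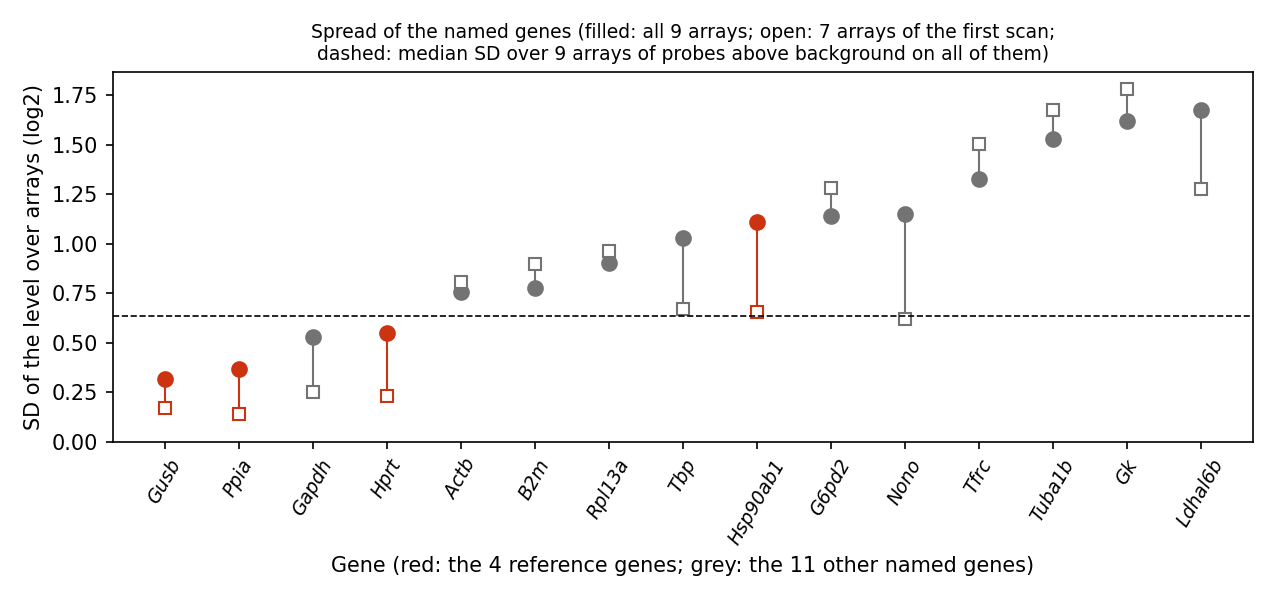
SD of the level (log2) over all 9 arrays (filled circles) and over the 7 arrays of the first scan (open squares) for the 15 named genes, with the 4 reference genes in red. The dashed line is the median SD of the 19944 probes above background on all arrays, 0.634, and Hsp90ab1 at 1.11 is the only red circle above it.

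The levels most like each gene's over the 9 arrays were found among the other 11 named genes by Pearson correlation, as a description over arrays that share the same 3 groups and 2 scans. Hprt was most like Nono, which encodes a nuclear RNA-binding protein (r = 0.991, n = 9), and Tbp, the TATA-binding protein (0.973). Hsp90ab1 was most like Tbp (0.995) and Nono (0.993). Over the 7 arrays of the first scan these 4 correlations were 0.982, 0.993, 0.990 and 0.978. Ppia was most like Gapdh, a glycolytic enzyme (0.977, and 0.876 over the first scan), and then Nono (0.784, and -0.322 over the first scan). Gusb was most like Gapdh (0.853) and Nono (0.801), but over the first scan these were 0.242 and 0.071. Among the 4 genes, Hprt and Hsp90ab1 had r = 0.986 over 9 arrays and 0.998 over 7, while Gusb and Ppia had 0.899 and 0.437.

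Scaling to a reference subtracts the same amount from every probe of an array, so the difference of every other probe moves by the reference's own difference. The counts below thus carry, for the whole array, the differences of the 4 genes given above. They also depend on the spread within groups, which changes with the scale. All arrays were rescaled to each gene in turn and the tested probes were compared again by limma. For liver cancer against adult liver, scaling to the 75th percentile gave 3958 probes higher and 4247 lower in cancer. Scaling to Gusb gave 3401 higher and 3256 lower, to Ppia 5778 and 2188, to Hprt 9540 and 1665, and to Hsp90ab1 18375 and 778. The median log2 difference of all tested probes was 0.01 with the percentile, 0.20 with Gusb, 0.51 with Ppia, 0.73 with Hprt and 1.32 with Hsp90ab1. Scaled to Hsp90ab1, 95.9% of the called probes were higher. Over the first scan, where Hsp90ab1 was at -0.40 and not called, that share was 74.6% (5834 higher and 1989 lower), against 3025 and 3151 by the percentile. Scaling to Gusb then gave 1630 higher and 5568 lower, to Ppia 2316 and 3542, and to Hprt 3656 and 2743, so the side with more calls turned for Gusb and Ppia. The median of all tested probes in that scan was 0.09 by the percentile, -0.37 by Gusb, -0.05 by Ppia, 0.21 by Hprt and 0.49 by Hsp90ab1.

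Against fetal liver, scaling to Hsp90ab1 called 28368 of 34103 probes, 27136 of them higher, where the percentile called 14462, with 6950 higher and 7512 lower. Gusb gave 8210 higher and 5588 lower there, and Ppia 8627 and 5360. In the first scan Hsp90ab1 gave 21117 higher and 2449 lower, Gusb 4815 and 8310, and Ppia 5003 and 7817, where the percentile gave 6276 and 6813. Between fetal and adult liver, scaling to Hsp90ab1 gave 2651 higher and 15211 lower, against 7222 and 6267 by the percentile, 5735 and 6593 by Gusb and 7014 and 5324 by Ppia. The mean of Hprt, Gusb and Ppia gave 5801 higher and 6585 lower there. For cancer that mean gave 5664 higher and 2292 lower against adult liver, and 10978 and 4612 against fetal liver. With that mean the median log2 difference of all tested probes was 0.48 and 0.66, and over the first scan -0.07 and 0.12. Scaling to Hprt alone gave 16909 higher and 3243 lower in cancer against fetal liver over all arrays.

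Tfrc, the transferrin receptor that carries iron into cells and is abundant in red cell precursors, is given as an example of 1 gene under each scale. Its log2 difference between fetal and adult liver was 2.99 ± 0.26 (SE) by the percentile and 1.90 to 3.09 across the 4 reference genes, called higher in fetal liver each time. From fetal liver to cancer it was -1.70 ± 0.26 by the percentile, -1.36 by Gusb, -1.30 by Ppia and -0.59 by Hprt. Scaled to Hsp90ab1 it was 0.69 ± 0.20, which is the percentile value minus the -2.39 of Hsp90ab1 itself, and neither the Hprt nor the Hsp90ab1 value was called. Over the first scan it was -1.07 ± 0.15 by the percentile, called by limma, and 0.41 ± 0.16 by Hsp90ab1, not called.

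**Figure D5:**
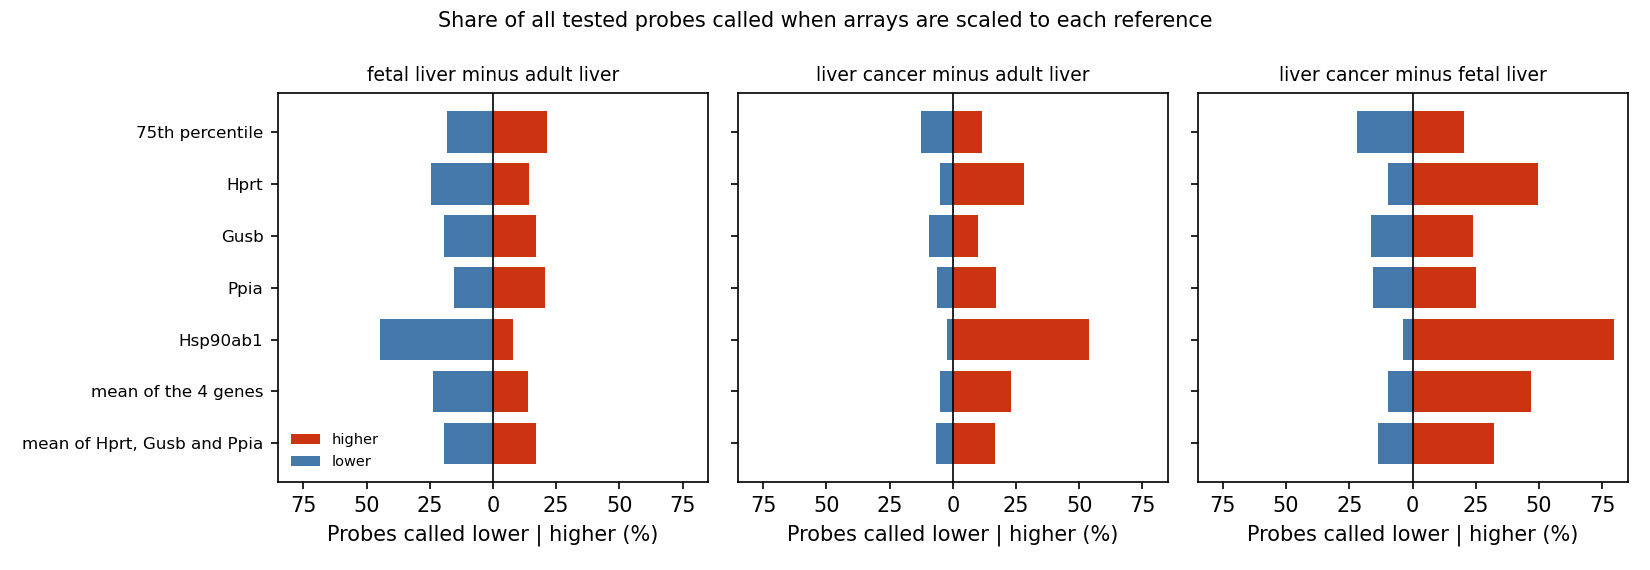
Percent of the 34103 tested probes called higher (right of 0) or lower (left of 0) by limma in each comparison, when arrays are scaled to the 75th percentile, to each reference gene, or to a mean of them, over all 9 arrays. Scaled to Hsp90ab1, 27136 probes are higher and 1232 lower when cancer is compared with fetal liver.

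Genes that work with each of the 4 (other purine salvage enzymes, lysosomal hydrolases, cyclophilins and cytosolic chaperones) were not analysed here, since the names available covered the 15 probes alone.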

How the data were processed

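RNA from 9 liver samples in 3 groups was measured on 1-colour Agilent arrays of 60915 probes. Per the file headers, the deposited files hold processed signal intensity from Agilent Feature Extraction 11.0.1.1, with the design on the mm9 build; per those headers the software subtracted background and detrended each array. Deposited intensity values were taken to log2 here, spots of a probe were averaged without outlier flags or control spots, and each array's 75th percentile was subtracted. Custom probes were named through RefSeq accessions (15 of 15 matched). Probes well above background on at least 3 arrays were tested (34103), with limma 3.58.1 in R 4.3.3, 1 mean per group, and Benjamini-Hochberg adjustment over all tested probes. Ratios used the exact permutation test, adjusted over 105 pairs; limma gave their intervals. Both were tested on simulated data. The number of arrays limits the precision.

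The 4 genes are named with every value; of the other named genes, the 2 most correlated with each and those with the smallest and largest SD are named, and Tfrc was chosen after its values were seen. The figure of the spread shows all 15. Members and lists were chosen with earlier results of these data known. Alternatives were other scalings, background correction (normexp, offset 50), filters, spot summaries, variance models, scan and replicate blocks, and leaving out arrays. Spike-in scaling was not run, because 1 of 10 spike-in probes was above background on all arrays.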

Additional observations from a re-analysis of the deposited data

Results flagged for a closer look

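The paired control probes lie outside the comparisons of the 4 genes and carried a signal that differed from the adult livers. The Pgk1 gap between the probes named 3 and 5 was larger in liver cancer than in adult liver by 1.45 on the log2 scale, in 3 of 3 cancers. The Gapdh gap was larger by 0.21, also in 3 of 3. The exact permutation p was 0.1 for each, the smallest that 3 against 3 arrays allow. Whether either bears on the reference genes was not tested.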

How the results depend on the processing

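With 3 arrays per group and 2 of 3 cancers in a scan of their own, cancer and scan are told apart only through liver cancer 1. Of 288 recomputed differences of the 4 genes, 243 kept their direction and their side of the threshold. Another 25 lost a call, 1 gained one and 19 changed sign, and the cause was not tested. Filters, variance models, the 2 groups alone and the replicate block leave the difference itself unchanged. So does leaving out an array of a group not compared. Agreement in direction was fixed in advance in those settings. The count of genes called between fetal and adult liver went from 1 to 0 with the array median (Hsp90ab1 1.04) and with no filter (1.09). It also did so with scaling to the other 3 genes (0.94), a scale that carries the differences of those genes themselves. Between liver cancer and adult liver it went from 1 to 0 with the 2 groups alone, where Hsp90ab1 stayed at -1.30 (limma adjusted p = 0.0586), with scaling to the other 3 genes (-0.83), with normexp (-0.74), and with the scan as a block or the first scan alone (-0.40 in both). Between liver cancer and fetal liver it went from 2 to 1 with scaling to the other 3 genes (Hprt -0.07), normexp (-0.56), the scan block and the first scan (-0.51 in both). Leaving out 1 array gave 0 to 1, 0 to 2 and 1 to 2 genes, and 5 to 6 of the 6 ratios. Of all tested probes it gave 12601 to 13978, 6555 to 12117 and 13259 to 16424, and of all 105 pairs 91 to 103. Between fetal and adult liver, 13382 probes were called with the array median, 13488 with scaling to the other 3 genes and 13667 with no filter, against 13489.

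Nothing in the labels says that equal replicate numbers pair the samples. Same-numbered arrays correlated at -0.21 to 0.41 in their deviations, 4 of 9 over 0.1, and differently numbered ones at -0.44 to 0.34. With 3 arrays per group these values cannot show whether samples were paired. With the replicate number as a block, 1, 1 and 2 genes and 5 of 6 ratios were called. Gusb to Ppia was lost (exact permutation adjusted p = 0.0703), as it was with the median over spots (0.0742). In the same order of comparisons, that block called 13584, 8439 and 14658 of all tested probes. All called probes numbered 5949 between fetal and adult liver by normexp against 13489, and 7189, 4558 and 7846 in the 3 comparisons when only probes above background on all arrays were tested, against 13489, 8205 and 14462.

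The sign changes concerned Gusb and Ppia. Ppia between fetal and adult liver was 0.45 by quantile normalization. It ranged from -0.17 to 0.01 when 1 array was left out (0.0078 without fetal liver 2). Quantile normalization put Ppia in liver cancer at -0.56 from fetal liver (limma adjusted p = 0.0206) and at -0.11 from adult liver (0.657). It put Hprt in fetal liver 0.72 above adult liver (limma adjusted p = 0.0405). All of these were short of 2-fold. Scaled to the other 3 genes, Gusb was -0.31 between fetal and adult liver, 0.65 between liver cancer and adult liver and 0.95 between liver cancer and fetal liver, and Ppia was 0.24 and 0.89 in the last 2. By normexp, Gusb was 0.37 and 0.24 and Ppia 0.092 and 0.25 in those 2 comparisons. With the scan as a block, and in the first scan alone, Gusb was 0.46 and 0.30 and Ppia 0.14 and 0.24. The scalings to each gene over the first scan alone were added after the data were seen.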
